A study of Mus musculus with 4 samples.

Results

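Interneurons lacking Grin1 were compared with wild-type (WT) interneurons of the mouse hippocampus, library by library and within the same version of the 10x single-cell chemistry. A cell was taken when it had 200 to 6000 genes, under 30% mitochondrial UMIs (unique molecular identifiers, one per captured transcript), at least 3 UMIs of Gad1 and Gad2 together, and 0 UMIs of the oligodendrocyte gene Mog. This selected 3841 cells of 14820 in the hippocampal matrices, out of 26987 in the whole series. They came from 5 libraries, with 440, 995 and 708 cells in WT replicates 1, 2 and 3 and 164 and 1534 cells in null replicates 1 and 2.

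The study sorted TdTomato-positive cells from juvenile mice of postnatal days 18 to 20, whose Ai14 reporter is switched on by Cre in the lineage of the Nkx2-1-expressing progenitors. The null animals carried Nkx2-1-Cre, Ai14 and floxed Grin1 on both alleles, and the WT animals were littermates with Nkx2-1-Cre, Ai14 and intact Grin1. The labels give pools of animals of both sexes for both genotypes, but whether every library held both is in doubt from the Xist values below. Tissue was dissociated with papain in the presence of tetrodotoxin, APV and actinomycin D. Single cells were sorted by FACS with doublet discrimination before 3′ libraries were made.

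Replicate 1 of each genotype was made with version 2 of the chemistry and the other libraries with version 3. The version 2 contrast therefore compared 1 null with 1 WT library, and the version 3 contrast compared null replicate 2 with the mean of WT replicates 2 and 3. The contrasts share no library. Neither has replicates on both sides, so differences within a chemistry are described by size with no test.

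The UMIs of the selected cells summed to 2542991, 2659917 and 7081997 in WT replicates 1, 2 and 3, and to 2057888 and 21811541 in null replicates 1 and 2. The median per cell was 5516, 2268 and 9933 UMIs in the WT libraries and 11856.5 and 13998 in the null libraries. Every null library was thus deeper per cell than every WT library, so shares of cells with a UMI are also given with each cell thinned to 1000 UMIs. At most 7 cell barcodes were shared between any pair of hippocampal libraries, and 1 selected cell of WT replicate 1 had a barcode that also marked a selected cell of WT replicate 3. No doublet caller was used, and the requirement of 0 Mog UMIs removes pairs of an interneuron and an oligodendrocyte only where Mog was captured.

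The selected cells had the markers of GABAergic neurons from the medial ganglionic eminence (MGE). Slc32a1, the vesicular GABA transporter, reached 311, 290 and 448 CPM (UMIs scaled to a common total per library) in the WT libraries and 326 and 565 in the null libraries. Lhx6, the MGE-lineage transcription factor, stood at 149, 130 and 156 against 115 and 136 CPM. The label fits on both genes, which the rule did not use. The TdTomato transcript was found in all 5 libraries too, at 496, 521 and 887 CPM in WT and 543 and 964 in null libraries, while no EGFP UMI was counted in the selected cells. Slc17a7, the vesicular glutamate transporter of excitatory neurons, had a UMI in 0, 1 and 2 WT cells and in 0 and 1 null cells, and Chat, of cholinergic neurons, in 1 cell of WT replicate 3.

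Some libraries stood apart in ways that the genotype does not describe. Xist, the transcript that coats the inactive X chromosome and is made by female cells, was at 571 and 368 CPM in WT replicates 1 and 3, with a UMI in 51.8% and 49.2% of their cells, or in 33.6% and 30.2% after thinning to 1000 UMIs. WT replicate 2 and null replicate 1 had 0 Xist UMIs in 995 and 164 cells, which allows shares of cells with a captured Xist UMI of up to 0.302% and 1.83%, and null replicate 2 had a single Xist UMI among 1534 cells. The Y-linked RNA helicase Ddx3y was counted in all 5 libraries, at 56.6, 100 and 39.1 CPM in WT and at 75.8 and 81.8 in null libraries. Xist was thus near absent from WT replicate 2 and both null libraries, although the labels give pools of both sexes, and for a gene that differs between the sexes the version 2 contrast and the difference from WT replicate 3 do not separate sex makeup from genotype. Null replicate 2 minus WT replicate 2 compares libraries that both had at most 1 Xist UMI.

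WT replicate 2 also had the lowest depth per cell and, as shown further on, shared a raised level of activity-regulated genes with null replicate 2. Many version 3 values are therefore also given against WT replicates 2 and 3 separately.

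N-methyl-D-aspartate (NMDA) receptors are glutamate-gated cation channels that pass calcium when glutamate binds while the membrane is depolarized. Each receptor needs the GluN1 subunit, encoded by Grin1, together with GluN2 or GluN3 subunits that set its kinetics and its block by magnesium. In interneurons of the hippocampus these receptors take part in excitatory input and in postnatal maturation, and MGE-derived cells include somatostatin (Sst), parvalbumin (Pvalb) and a share of the neurogliaform and ivy cells.

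Grin1 (ENSMUSG00000026959, chromosome 2, 25291181 to 25319187 of GRCm38, minus strand) was low in both null libraries. It stood at 120, 168 and 138 CPM in WT replicates 1, 2 and 3 and at 28.7 and 18.6 in null replicates 1 and 2, after scaling of library sums by edgeR's trimmed mean of M-values (TMM). These values rest on 308, 430 and 1000 UMIs in WT and on 56 and 415 in null libraries. The groups did not overlap: the highest null library lay under the lowest WT library. The fitted log2 change with chemistry as a term was -2.63 (SE 0.41, 3 WT and 2 null libraries). The difference was -1.89 in version 2, and in version 3 it was -2.88 against WT replicate 2 and -2.60 against WT replicate 3. Which exons are floxed is not given in the sources used here, so how far the remaining 3′ UMIs report an intact transcript was not tested.

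In cells with Sst at 3000 CPM of the cell or more, called Sst-high below, Grin1 was at 126, 194 and 148 CPM in WT and at 21.6 and 23.8 in null libraries, a log2 change of -2.73 (SE 0.38). In the other interneurons it was at 116, 156 and 132 against 33.4 and 15.4 CPM, a change of -2.63 (SE 0.46). Null and WT libraries were apart in both sets of cells. Between the sets the null libraries went opposite ways, with null replicate 1 lower and null replicate 2 higher in Sst-high cells. A joint fit of both sets with each library as a block gave 0.20 (SE 0.20) for the change in Sst-high cells minus that in the other interneurons, a sign opposite to that of the separate fits, with an adjusted p of 0.9998. No difference between the sets was shown for Grin1.

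**Figure D1:**
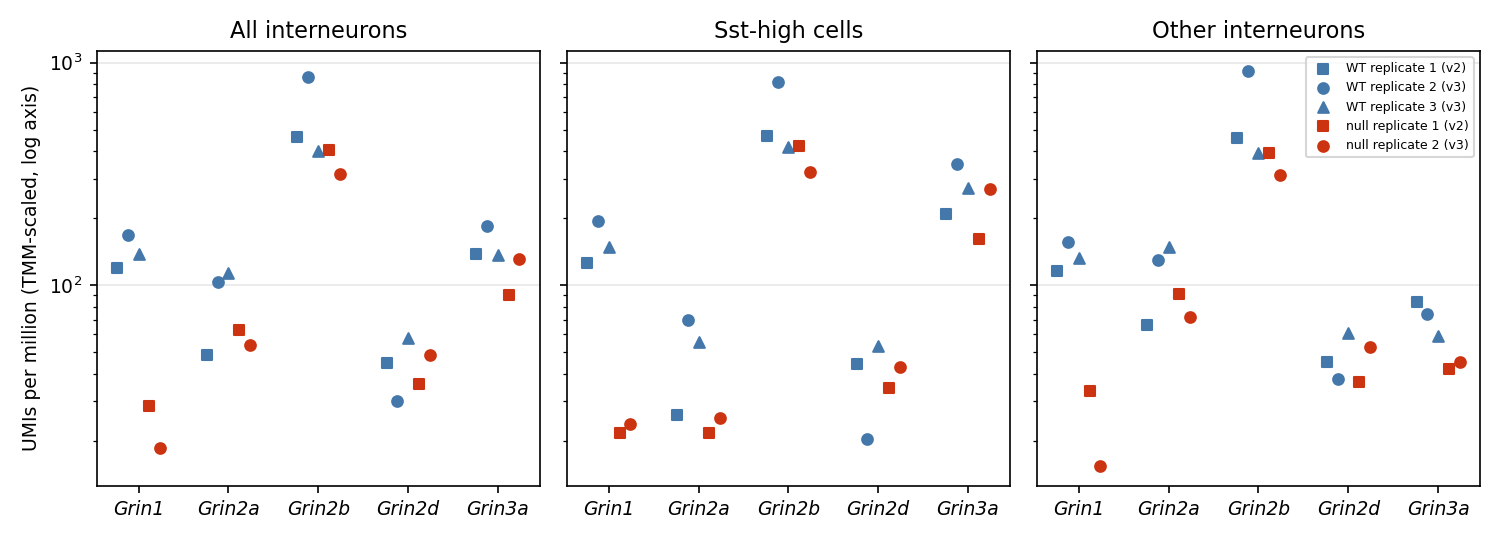
NMDA receptor subunits in CPM (TMM-scaled, log axis) in all interneurons, Sst-high cells and other interneurons, with 1 point per library. For Grin1 the WT libraries lay at 120 to 168 in all interneurons and the null libraries at 18.6 and 28.7, while the other subunits overlapped or lay close between genotypes.

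The share of cells with at least 1 Grin1 UMI was 46.8%, 31.2% and 66.8% in WT replicates 1, 2 and 3 and 26.8% and 20.7% in null replicates 1 and 2. It was lower in the null libraries although these were deeper. With each cell thinned to 1000 UMIs it was 11.6%, 14.2% and 14.9% in WT and 4.27% and 2.03% in null libraries. Oligodendrocytes of the same libraries (at least 3 Mog UMIs, no Gad1 or Gad2), taken as cells with little Grin1, had a Grin1 UMI in 0.261%, 0.783% and 0.687% of WT and 0.862% and 0.545% of null cells, at median depths of 4823.5, 1934 and 7826.5 UMIs in WT and 8309.5 and 8214.5 in null libraries. The shares in null interneurons were thus above those in oligodendrocytes.

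The same rule found 5522 interneurons in the cortical libraries, where Grin1 changed by -2.65 on the log2 scale against -2.63 in the hippocampus. The difference was 0.02 (SE 0.44, adjusted p 0.9998). In edgeR's quasi-likelihood test of hippocampal against cortical genotype changes, 0 of 12910 genes (0%) passed an adjusted p of 0.05, 151 had an unadjusted p under 0.05, and no other tool was run for that contrast. This fit did not pair the hippocampal and cortical libraries of a replicate, and it used the same chemistry term for both regions. A gene that was not called is not thereby shown to change alike in both regions.

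The other NMDA receptor subunits changed less than Grin1. Grin2b, which encodes the slow GluN2B subunit, was at 461, 860 and 400 CPM in WT and at 404 and 316 in null libraries, a log2 change of -0.65 (SE 0.42). Null replicate 1 lay between WT libraries, and WT replicate 2 was high by itself, so the version 3 difference was -1.43 against WT replicate 2 and -0.34 against WT replicate 3. Grin2a, for the faster GluN2A, was at 48.6, 103 and 114 in WT and at 63.0 and 53.6 CPM in null libraries, and its difference was 0.34 in version 2 and -0.95 in version 3. In Sst-high cells Grin2a was at 26.2, 69.8 and 55.8 against 21.6 and 25.3 CPM, lower in both null libraries than in any WT library, at -0.95 on the log2 scale (SE 0.40, unadjusted p 0.0384). It was not called after adjustment, as edgeR called no gene in these cells. Grin2d, a subunit typical of interneurons, overlapped between genotypes at 44.7, 30.1 and 57.9 against 35.8 and 48.5 CPM. Grin3a, for the GluN3A subunit, was at 137, 183 and 137 against 90.1 and 132 CPM, lower in both null libraries than in any WT library by -0.58 in version 2 and -0.26 in version 3. Grin2c and Grin3b passed no filter on low counts, with at most 8 and 5 UMIs in any library.

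Over the whole table, edgeR's quasi-likelihood test, its p-values adjusted by the Benjamini-Hochberg method, called 0 of 11346 genes (0%) at an adjusted p under 0.05 in all interneurons, where 223 had an unadjusted p under 0.05 and DESeq2 called 1. In Sst-high cells it called 0 of 9428 genes (0%), with 173 at an unadjusted p under 0.05 and 2 called by DESeq2. In the other interneurons it called 0 of 10212 (0%), with 238 and 1. With no effect, a share of 0.05 of the genes would be expected to have an unadjusted p under 0.05. Each of these counts was a smaller share of the genes tested. DESeq2 called Grin1 in each set and S100a13, a calcium-binding protein, in Sst-high cells. Grin1 had the smallest adjusted p of edgeR in each set, at 0.795, 0.26 and 0.525, the last of these tied with Xist. These p-values measure only the spread between these libraries, and 2 null libraries of different chemistry leave that spread poorly known. Grin1 kept its sign under all 19 alternatives for all interneurons, from -3.04 to -2.04, with an adjusted p from 3.6e-07 to 1 that was under 0.05 in 6 of them. Leaving out WT replicate 2, WT replicate 3 or null replicate 1 brought it to 0.00967, 0.00507 and 0.0299, and the replicate number as a block to 0.0036. The number of genes called also depended on single libraries: in all interneurons it was 4, 3 and 20 without WT replicate 2, WT replicate 3 and null replicate 1 and 0 without WT replicate 1 or null replicate 2. Among the same alternatives it ranged from 1 to 35 in Sst-high cells, with the most called without WT replicate 2, and from 2 to 21 in the other interneurons, with the most called without null replicate 1.

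Genes were next compared by the size and sign of the 2 chemistry-matched differences, each on the log2 scale of TMM-scaled CPM with 5 added. Of the 11346 genes tested in all interneurons, 2954 (26%) were higher and 2800 (24.7%) lower in the null library in both chemistries, and 5588 changed in opposite directions. At 1.5 times or more in both chemistries 195 genes (1.72%) had the same sign and 181 opposite signs. At 2 times or more 12 genes (0.106%) had the same sign and 12 opposite signs, so as many genes disagreed as agreed at that size. In Sst-high cells 17 of 9428 genes (0.18%) agreed at 2 times and 13 were opposite, and in the other interneurons 13 of 10212 (0.127%) agreed and 14 were opposite. For some genes below, both null libraries lay above or below all WT libraries. Only 10 arrangements of 3 WT and 2 null libraries exist, so a gene can be separated in this way without a genotype effect. The share of all genes tested that were so separated was not counted.

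**Figure D2:**
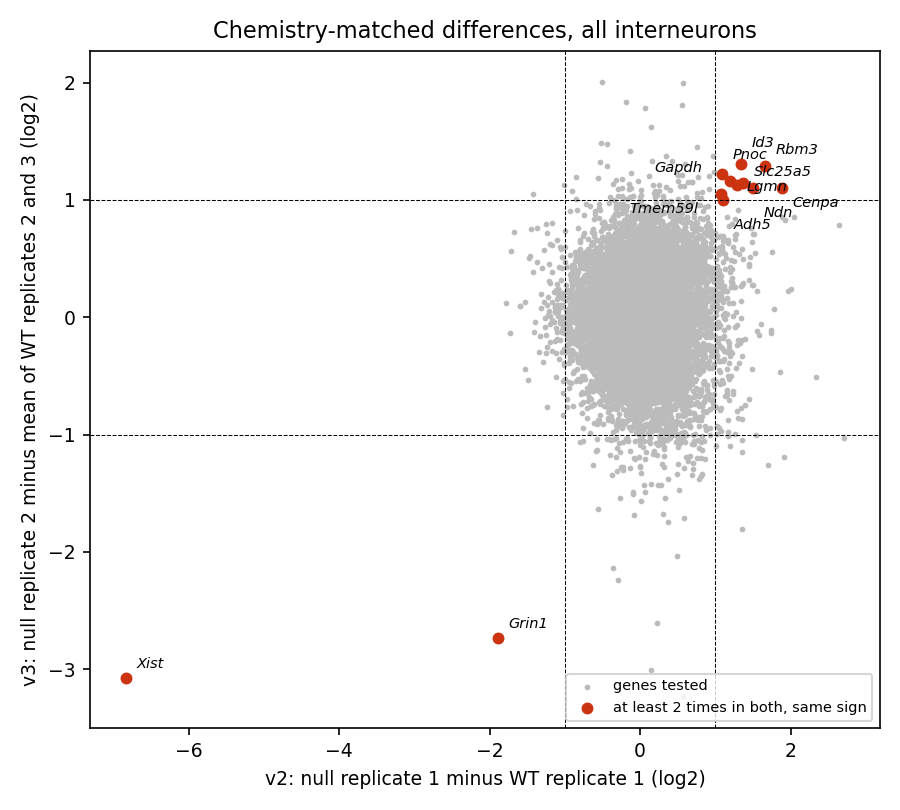
Null minus WT difference of each of 11346 genes in version 2 (horizontal axis) and version 3 (vertical axis), on the log2 scale with 5 CPM added; dashed lines mark 1 and -1, a change of 2 times. The 12 genes past 2 times with the same sign are in red, with Grin1 and Xist apart at the lower left and 10 genes close to the limit at the upper right.

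Many of these genes depended on WT replicate 2. Only 2 of the 12 in all interneurons, Grin1 and Id3, passed 2 times against WT replicates 2 and 3 separately, as did 4 of 17 in Sst-high cells (Grin1, Akr1c18, Lgmn and Itm2b) and 1 of 13 in the other interneurons (Grin1). With each cell thinned to 1000 UMIs some of these could not be compared, since fewer genes kept enough UMIs: Id3 left the test in all interneurons with thinning before selection (6925 genes tested), and Akr1c18 left it in Sst-high cells with thinning before or after selection (2156 and 4769 genes tested). Itm2b in Sst-high cells was under 2 times in version 2, at 0.92 and 0.79 with thinning before and after selection, and stayed above it in version 3, at 1.38 and 1.26. Lgmn in Sst-high cells had differences of 2.60 in version 2 and 1.52 in version 3 with thinning before selection. With thinning after selection these were -0.28 and 1.53. The version 2 values rest on 1 WT and 4 null UMIs and on 7 WT and 2 null UMIs. Grin1 in the other interneurons had -1.37 and -2.65 with thinning before selection, and -0.40 and -2.92 with thinning after it. The version 2 values rest on 13 WT and 2 null UMIs and on 25 WT and 7 null UMIs. The fitted change of Grin1 was -2.60 and -2.26 with thinning before and after selection. Without WT replicate 2 there were 6 agreeing genes in all interneurons, of which 3 were among the 12. Without WT replicate 3 there were 31, of which 11 were among the 12. At 1.5 times or more, 34 genes in all interneurons agreed against each WT library, 29 higher and 5 lower in the null libraries.

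Id3 encodes an inhibitor of basic helix-loop-helix transcription factors. Its level in all interneurons was 9.33, 4.69 and 9.36 CPM in WT replicates 1, 2 and 3 and 31.2 and 24.2 in null replicates 1 and 2. Both null libraries were above every WT library, by 1.34 in version 2 and by 1.59 and 1.03 in version 3 against WT replicates 2 and 3. The log2 change was 1.73 (SE 0.38, unadjusted p 0.00105, adjusted p 0.9997). In Sst-high cells Id3 was at 10.8, 4.85 and 16.6 in WT and at 57.3 and 35.4 CPM in null libraries, again with no overlap. With the replicate number as a block edgeR called Id3 in Sst-high cells, unlike in the main fit.

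Rbm3, for a cold-inducible RNA-binding protein, was at 89.0, 155 and 271 CPM in WT and at 292 and 508 in null libraries. All WT libraries lay under both null libraries, but null replicate 1 was only just above WT replicate 3. Cirbp, for another cold-inducible RNA-binding protein and named here after its values were seen, was at 473, 176 and 375 against 808 and 597 CPM, at 1.5 times or more against each WT library. Lgmn, for the lysosomal protease legumain, was at 35.0, 41.4 and 59.6 in WT and at 92.2 and 115 CPM in null libraries, with a difference of 1.28 in version 2 and of 1.37 and 0.89 in version 3 against WT replicates 2 and 3. Cenpa, a centromeric histone variant, was at 12.1, 7.43 and 20.2 against 57.9 and 33.0 CPM. With the replicate number as a block edgeR called Cenpa in all interneurons and in the other interneurons, unlike in the main fit.

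Among genes of energy metabolism, the glycolytic enzyme gene Gapdh was at 693, 839 and 1294 CPM in WT and at 1586 and 2340 in null libraries. Slc25a5, for the mitochondrial ADP/ATP carrier, was at 271, 146 and 355 against 709 and 512 CPM. Null libraries were the highest for both genes, but against WT replicate 3 the version 3 difference was 0.85 for Gapdh and 0.52 for Slc25a5. Of the remaining 4 rises, Ndn, Pnoc and Adh5 had version 3 differences of 0.15, 0.04 and 0.36 against WT replicate 3 and of 2.05, 2.41 and 1.64 against WT replicate 2, and Tmem59l of 0.69 and 1.42. Pnoc, the nociceptin precursor, overlapped between genotypes at 214, 92.7 and 501 against 461 and 514 CPM.

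Xist was the only fall beside Grin1 in all interneurons. It differed by -6.83 in version 2 and by -6.17 against WT replicate 3, but by 0.01 against WT replicate 2, with 1 Xist UMI in null replicate 2 and 0 in WT replicate 2.

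In Sst-high cells the amyloid-binding membrane protein gene Itm2b was at 641, 576 and 578 CPM in WT and at 1339 and 1466 in null libraries. The WT libraries lay close together and both null libraries were above them, at a log2 change of 1.23 (SE 0.29, unadjusted p 0.00165, adjusted p 1). Itm2b was higher in the other interneurons too, at 532, 440 and 476 against 1004 and 1206 CPM. Its differences there were 0.91 in version 2 and 1.39 in version 3. In Sst-high cells Akr1c18, for an enzyme that inactivates progesterone, was at 7.22, 4.85 and 3.77 against 21.6 and 24.4 CPM, at 2.20 (SE 0.44, adjusted p 1). Its values rest on only 8, 5 and 10 UMIs in WT and on 17 and 211 in null libraries. Nrgn, for the protein neurogranin of excitatory neurons, rose at 1.81, 40.7 and 7.16 against 14.0 and 70.7 CPM, but the genotypes overlapped.

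Besides Grin1 and Xist, Jazf1 and 1 of the entries for Snrpn fell in Sst-high cells. Jazf1, a zinc-finger gene, was at 5.42, 22.3 and 12.1 against 0 and 5.78 CPM, and the entry of the imprinted splicing gene Snrpn with identifier ENSMUSG00000000948 at 29.8, 102 and 31.6 against 10.2 and 25.7. WT replicate 2 was high for both. Jazf1 had only 6, 23 and 32 UMIs in WT and 0 and 50 in null libraries. S100a13 was at 2.71, 23.3 and 10.2 in WT and at 0 and 0.578 CPM in null libraries, with a difference of -0.62 in version 2. It too was called by edgeR with the replicate number as a block.

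In the other interneurons Crhbp, for the corticotropin-releasing-hormone binding protein, was at 20.6, 53.5 and 10.5 CPM in WT and at 78.8 and 92.1 in null libraries. Both null libraries lay above the WT libraries, by 1.71 in version 2 and by 0.73 and 2.65 against WT replicates 2 and 3 in version 3. Crhbp is also on the marker list of Sst cells. Sst itself, which the rule used to form the set, fell from 549, 358 and 282 in WT to 294 and 194 in null libraries, so null replicate 1 lay among the WT libraries.

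Apoe, the lipid carrier made mostly by glia, fell in the other interneurons, at 40.5, 23.0 and 107 CPM in WT against 13.7 and 14.9 in null libraries. WT replicate 3 was high, and the version 3 difference was -2.50 against it and -0.49 against WT replicate 2. Apoe had a UMI in 4.89%, 2.13% and 17.7% of these WT cells and in 14.7% and 15.4% of the null cells, or in 1.13%, 1.03% and 3.35% against 0.98% and 1.45% after thinning to 1000 UMIs. In oligodendrocytes the thinned shares were 3.05%, 3.27% and 2.64% against 4.31% and 5.01%, so only in WT replicate 3 was the share in these interneurons above that in oligodendrocytes.

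Whether the genotype change differed between Sst-high cells and the other interneurons was tested by edgeR's quasi-likelihood test with each library as a block. It called 31 of 10716 genes (0.289%), 21 with a positive and 10 with a negative difference, and 9 at an adjusted p under 0.01. Besides Sst, whose level formed the sets, the genes with the smallest p were Apoe (2.92, SE 0.27), Vip and Dlk1. Vip, a peptide of interneurons from the caudal ganglionic eminence, had a UMI in 1 cell of each library except null replicate 2, where it was in 10 cells, and Dlk1, for a Notch-related membrane protein, had one in 5, 1 and 20 WT cells and in 1 and 26 null cells. For Vip and Dlk1 the test thus rests on few cells, and their fitted differences depend on the small count that edgeR adds. Apoe too had a UMI in only 9, 4 and 28 WT and 11 and 67 null cells of the Sst-high set. The sums of 8 astrocyte markers also differed between the sets, at 88.7, 95.3 and 102 CPM in WT and 116 and 127 in null libraries in Sst-high cells, and at 108, 177 and 135 against 75.7 and 109 in the other interneurons, and the astrocyte marker Slc1a2, for a glutamate transporter, was among the 31 genes. Their part in the result was not tested.

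Cort, for the peptide cortistatin, was among the 31 genes and is named after its values were seen. It was at 316, 203 and 238 CPM in WT and at 619 and 430 in null libraries in the other interneurons, and at 774, 533 and 934 against 729 and 632 in Sst-high cells. The null libraries were above WT in the first set and among them in the second. The cause of this difference was not tested.

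The remaining glutamate receptor genes, by lists of related genes, gave no gene past 2 times in both chemistries. Of 24 AMPA and kainate receptor genes with auxiliary subunits, 2 were higher and 6 lower in both chemistries, with a median log2 change of -0.13 against -0.02 over all genes tested. Their version 3 median was -0.07 against WT replicate 2 and 0.04 against WT replicate 3. Gria1, for the AMPA receptor subunit GluA1, was at 912, 910 and 880 CPM in WT and at 990 and 780 in null libraries, so the genotypes overlapped. Gria2, for the subunit that limits calcium entry, was at 497, 510 and 357 against 360 and 359 CPM, with WT replicate 3 level with the null libraries. Of 6 metabotropic receptor genes 1 was higher and 2 lower, with a median of -0.16 and version 3 medians of -0.13 and 0.05 against WT replicates 2 and 3.

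Postsynaptic scaffolds and calcium signalling genes, which hold receptors in place and carry their calcium signal, were higher in 6 and lower in 14 of 35, with a median of -0.13.

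Activity-regulated genes, the transcription factors and effectors switched on within minutes by calcium and other signals, differed more between libraries of the same genotype than between genotypes. Fos was at 12.4, 366 and 18.3 CPM in WT replicates 1, 2 and 3 and at 7.17 and 256 in null replicates 1 and 2. Egr1, also an early transcription factor, was at 7.78, 215 and 8.81 against 2.05 and 121 CPM. Npas4, a neuronal factor that responds to calcium entry, was at 3.89, 38.7 and 1.10 against 1.02 and 32.3. For these genes WT replicate 2 and null replicate 2 were high and the other 3 libraries low. Between libraries of the same replicate number the null library was the lower for these 3 genes, of which Egr1 and Npas4 were named after their values were seen. The list of 23 measured genes did not show this fall. Its median difference was 0.00 in version 2 and 0.12 for null replicate 2 against WT replicate 2. For Fos, Egr1 and Npas4 null replicate 2 was also above WT replicate 3. Fos was split by library in the same way in oligodendrocytes. Of these, 0.870%, 23.3% and 0.549% of WT cells and 0% and 26.5% of null cells had a Fos UMI. After thinning the shares were 0.0870%, 14.4% and 0.417% against 0% and 9.78%. The cause of this shared pattern was not tested.

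The 23 measured activity-regulated genes summed to 842, 2056 and 840 CPM in WT and to 588 and 1783 in null libraries, with 10 higher and 2 lower in both chemistries. Their median difference in version 3 was 0.12 against WT replicate 2 and 1.36 against WT replicate 3, and 0.00 in version 2. A genotype difference in these genes in version 3 thus depended on which WT library was taken. Both high libraries bear replicate number 2.

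**Figure D3:**
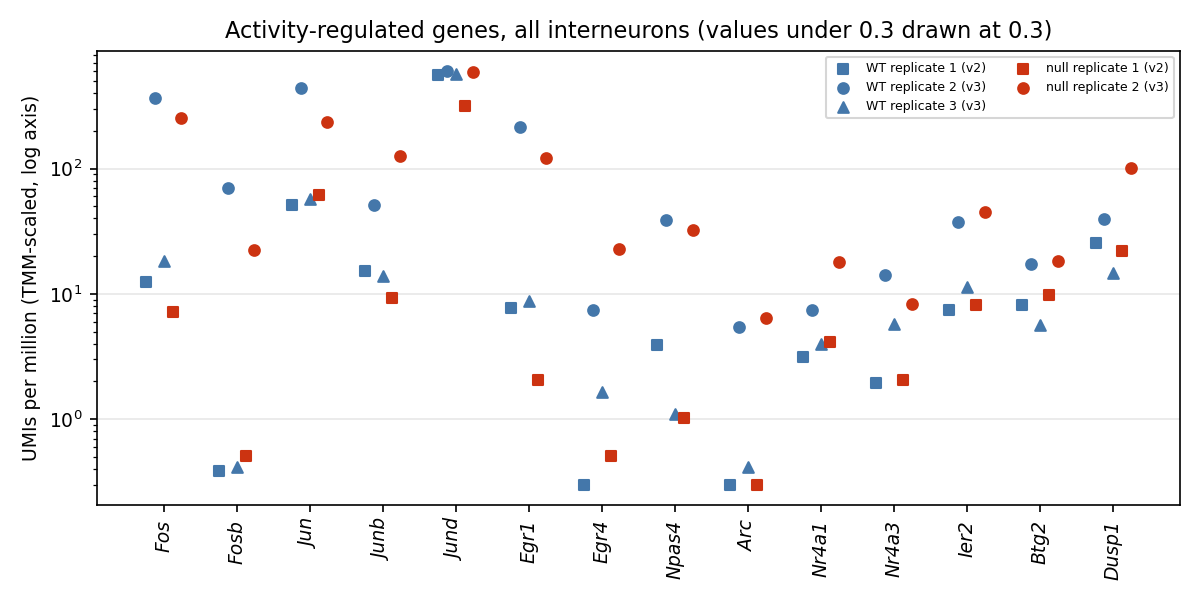
Activity-regulated genes in CPM (TMM-scaled, log axis) in all interneurons, with 1 point per library. For Fos, Egr1 and Npas4 the circles of WT replicate 2 and null replicate 2 lie above the other 3 libraries, which include both genotypes.

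Of 9 genes for GABA synthesis, transport and chloride carriers 3 were higher and 1 lower in both chemistries, with a median of 0.05 that changed sign in 1 of 19 alternatives and version 3 medians of 0.28 and -0.02 against WT replicates 2 and 3. These 9 include Gad1 and Gad2, the GABA-synthesizing enzymes that the rule used to select cells. Gad1 was at 1085, 1314 and 1402 against 1394 and 1737 CPM, and Gad2 at 1099, 1786 and 1774 against 1421 and 1558. Of 14 GABA receptor subunit genes 3 were higher and 2 lower, with a median of -0.06 that changed sign in 3 of 19 alternatives, and the extrasynaptic subunit gene Gabrd passed 1.5 times in both chemistries, at 18.3, 26.6 and 78.4 against 37.4 and 73.4 CPM, where WT replicate 3 was the highest library.

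MGE-lineage transcription factors, which set and maintain interneuron identity, were higher in 4 and lower in 11 of 26, at a median of -0.19. This median ranged from -0.37 to -0.08 over the alternatives. The median difference was -0.09 in version 2, and -0.13 and -0.07 in version 3 against WT replicates 2 and 3. Satb1, a chromatin organizer needed by Sst cells, was at 390, 318 and 353 CPM in WT and at 276 and 241 in null libraries. Both null libraries were below all WT libraries, at a log2 change of -0.49 (SE 0.33). Zeb2, a factor that directs MGE cells away from the striatum, was at 291, 574 and 293 against 232 and 283, also with no overlap, while the neurogliaform marker Id2 was at 321, 220 and 322 against 572 and 352, with null replicate 2 close to WT replicate 3.

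Of 12 measured neuropeptide genes, 8 were higher and 1 lower in both chemistries, with a median of 0.33 that ranged from 0.21 to 0.68 over the alternatives, and with version 3 medians of 0.42 and 0.18 against WT replicates 2 and 3. In Sst-high cells 5 were higher and 4 lower of 11, with a median of 0.17 that changed sign in 4 of 21 alternatives. These counts and this median include Sst, whose level formed the set. Npy, for neuropeptide Y, was at 836, 3198 and 2216 CPM in WT and at 2138 and 3214 in null libraries. WT replicate 1 was low by itself, so the difference was 1.35 in version 2 and 0.01 and 0.54 in version 3 against WT replicates 2 and 3. Oligodendrocytes had an Npy UMI in 1.39%, 3.69% and 4.53% of WT and 19.0% and 24.6% of null cells, or in 0.609%, 1.94% and 0.695% against 2.59% and 4.15% after thinning to 1000 UMIs, so the share was higher in the null libraries there too, and the part of such UMIs in the result was not tested. Of 19 calcium-binding protein genes, 9 were higher and 3 lower, with a median of 0.24 and version 3 medians of 0.09 and 0.31 against WT replicates 2 and 3. Pvalb, for parvalbumin, was at 61.4, 382 and 102 against 115 and 385, so its version 3 difference was 0.01 against WT replicate 2 and 1.87 against WT replicate 3. Vsnl1, for the calcium sensor visinin-like 1, was at 554, 368 and 656 against 851 and 815, with both null libraries the highest. Calb1, for calbindin and named after its values were seen, was at 349, 253 and 182 against 497 and 503 CPM, again with no overlap.

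Sodium and calcium channel genes with partners were higher in 3 and lower in 12 of 25 (median -0.22), and potassium and HCN channel genes with partners higher in 7 and lower in 6 of 32 (median -0.04, with the opposite sign in 2 of 19 alternatives). Synaptic organizers and neuregulin receptors were higher in 2 and lower in 11 of 34 (median -0.22). Against WT replicate 3 alone the version 3 medians of these 3 lists were -0.01, 0.03 and -0.10, and against WT replicate 2 alone -0.15, -0.19 and -0.18. Nrxn3, a presynaptic neurexin, was at 746, 855 and 557 CPM in WT and at 521 and 554 in null libraries, where null replicate 2 was level with WT replicate 3.

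Cadherins, protocadherins and contactins were higher in 6 and lower in 12 of 25 (median -0.14), axon guidance genes higher in 5 and lower in 11 of 36 (median -0.18), and extracellular matrix genes higher in 2 and lower in 6 of 15 (median -0.15). Without WT replicate 2 the medians of the cadherin and matrix lists changed sign, to 0.08 and 0.02. Epha5, an ephrin receptor, shows the weight of that library, at 476, 1846 and 572 CPM in WT and 574 and 490 in null libraries. Vcan, for the matrix proteoglycan versican, was at 22.5, 77.0 and 45.3 against 12.8 and 33.2, at 1.5 times lower or more in both chemistries but with null replicate 2 among the WT libraries.

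Of 82 nuclear genes for oxidative phosphorylation subunits, which build the respiratory chain, 75 were measured and 47 of these were higher and 5 lower in both chemistries. Their median log2 change was 0.22, and it was positive under all alternatives, from 0.14 to 0.28. It was 0.24 against WT replicate 2 and 0.12 against WT replicate 3 in version 3, and 0.24 in version 2. The most abundant, Ndufa4, was at 2292, 2224 and 3433 CPM in WT and at 3997 and 4091 in null libraries, with no overlap.

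Mitochondrially encoded genes had a like median of 0.22, which turned to -0.02 with no chemistry term. They summed to 15385, 9983 and 12351.3 CPM in WT and to 13924.6 and 17926.5 in null libraries, so null replicate 1 lay among the WT libraries. Of all barcodes 0%, 0.0217% and 0.127% in WT and 0.743% and 5.97% in null libraries were over 30% mitochondrial UMIs. These were left out. In the selected interneurons the median mitochondrial share was 1.51%, 1.94% and 1.60% in WT and 1.09% and 1.96% in null libraries. Null replicate 1 was thus the lowest library and null replicate 2 close to WT replicate 2. Cytosolic ribosomal protein genes went the other way, with 5 higher and 41 lower in both chemistries of 76 measured, and a median of -0.20 that ranged from -0.25 to -0.14. Their version 3 median was -0.03 against WT replicate 2 and -0.17 against WT replicate 3. Rpl27a, for a large-subunit protein, was at 261, 245 and 243 in WT and at 131 and 148 CPM in null libraries, and its groups were far apart. Heat-shock genes, which respond to stress of the cell, had a median difference of 0.51 in version 2 and of -0.43 and -0.06 in version 3 against WT replicates 2 and 3. Hsp90ab1, a chaperone, rose from 1134 to 2050 CPM in version 2, while in version 3 it was 1558 in the null library and 2726 and 2419 in the WT libraries.

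Lists of markers of other cells were read in the same UMI sums. The 12 mature oligodendrocyte markers summed to 539, 978 and 595 CPM in WT and to 491 and 404 in null libraries. Of the 12 genes 11 had UMIs, and Mog was at 0 by the rule. The 8 precursor markers summed to 18.5, 140 and 75.1 against 28.7 and 23.5 CPM, with Bcas1 as the most abundant, and Pdgfra and Cspg4 were at 0 in null replicate 1. All oligodendrocyte sums were highest in WT replicate 2.

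Of the 8 astrocyte markers all had UMIs in all 5 libraries, at sums of 99.9, 143 and 123 in WT and 91.8 and 116 CPM in null libraries. Of these sums Slc1a2 made up 44.8, 74.8 and 60.6 in WT and 25.3 and 43.0 CPM in null libraries. The 8 microglia markers summed to 7.08, 11.7 and 31.2 against 13.1 and 14.5 CPM, and 6 of them were at 0 in null replicate 1. The 8 glutamatergic neuron markers summed to 25.6, 75.6 and 149 against 30.1 and 99.4 CPM, mostly from Nrgn.

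The 6 choroid plexus and ependymal markers summed to 3.15, 3.38 and 161 in WT and to 0.486 and 2.52 CPM in null libraries, almost all from Ttr in WT replicate 3. Endothelial and mural markers were at or under 4.66 CPM in all 5 libraries. The 6 markers of interneurons from the caudal ganglionic eminence summed to 282, 217 and 314 against 198 and 249, with Cnr1 the most abundant. Cholinergic markers were at or under 10.3 CPM, and the 4 of striatal projection neurons at 17.7, 16.5 and 21.0 against 8.75 and 12.1, mostly from Rgs9. Their part in the results, such as those for Apoe and Nrgn, was not tested.

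**Figure D4:**
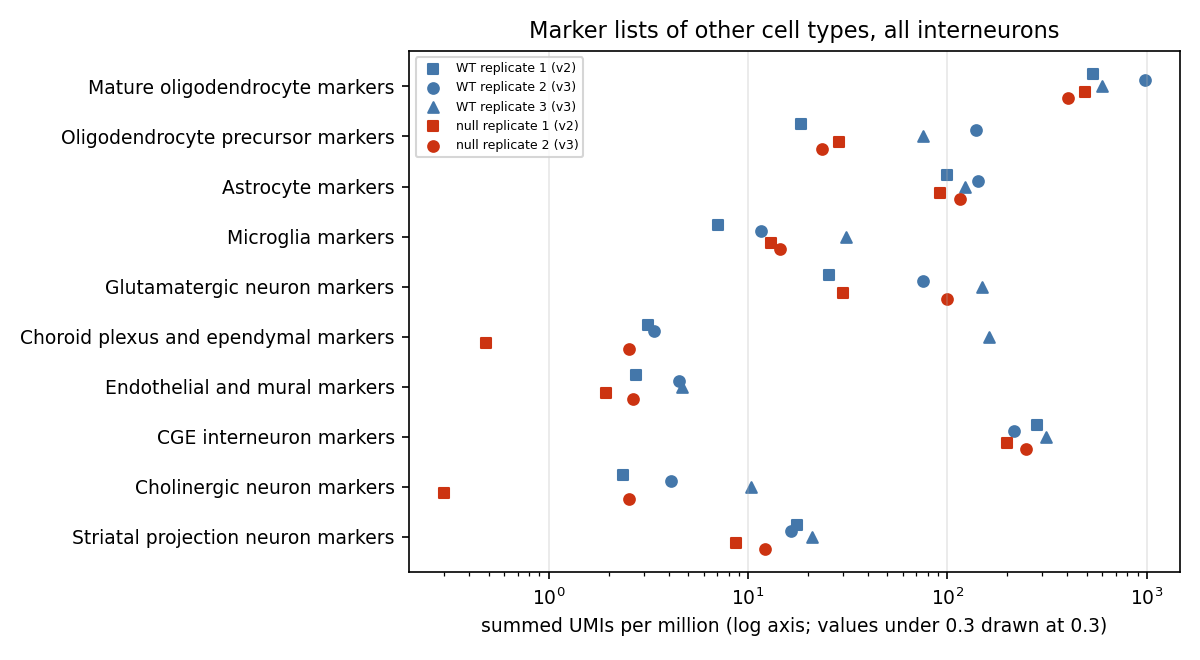
Summed CPM (log axis) of marker lists of other cell types in all interneurons, with 1 point per library. The mature oligodendrocyte list lies at 404 to 978 and the choroid plexus list reaches 161 in WT replicate 3.

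Sst-high cells were 39.5%, 34.0% and 31.4% of the interneurons in WT replicates 1, 2 and 3 and 37.8% and 36.8% in null replicates 1 and 2. The null libraries lay among the WT libraries. The difference was 2.33 points (two-sided exact permutation p 0.5, where 3 against 2 libraries allow no p under 0.1), and with the limit at 1000 CPM it was -1.25 points. The Sst level is a range and not a gap: 51, 85 and 49 WT cells and 11 and 64 null cells had 1000 to 3000 Sst CPM, and 34, 64 and 26 WT and 17 and 68 null cells had 3000 to 5000. The median Sst level over Sst-high cells was 8151, 9280 and 12513 CPM in WT and 8599 and 12646 in null libraries. In these cells the medians of Pvalb and Lamp5 over cells were 0 in all 5 libraries, while that of Npy was 0, 627 and 75.5 CPM in WT and 103 and 616 in null libraries.

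Sst UMIs were also found outside interneurons. Oligodendrocytes had an Sst UMI in 3.65%, 5.93% and 12.0% of WT cells and in 22.4% and 42.1% of null cells, or in 1.22%, 2.91% and 1.39% against 6.90% and 7.59% after thinning to 1000 UMIs. The null libraries were thus higher at equal depth as well. The corresponding shares in the other interneurons were 20.3%, 15.5% and 12.6% against 16.7% and 12.7% after thinning.

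Interneurons were 19.8%, 21.6% and 22.6% of the 14409 cells kept by the gene and mitochondrial limits in WT replicates 1, 2 and 3, and 40.9% and 37.8% in null replicates 1 and 2. Both null libraries were above all WT libraries, by 18.0 points on average (two-sided exact permutation p 0.1, the smallest possible). The difference was 21.1 points in version 2 and 15.7 in version 3. With each cell thinned to 1000 UMIs before the rule was applied it fell to 9.77 points (exact permutation p 0.1). With a stricter filter on cells (1000 genes or more, 10% mitochondrial UMIs or less) it was 10.4 points (p 0.4, exact permutation), since WT replicate 2 then had 42.1% interneurons, and null replicate 2 minus WT replicate 2 was -3.23 points. The share also depends on how many other sorted cells, among them oligodendrocytes, each library held.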

How the data were processed

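Deposited were counts of UMIs per gene and cell, which per the labels the authors made by aligning reads to mm10 with extended gene ends and counting with Cell Ranger (version 2.1.1 in the labels, a different one in the matrix headers), for sorted cells of 4 samples from 10 libraries. Each barcode suffix was read as a library and matched to replicate and chemistry by the cell numbers in the methods. The 5 hippocampal libraries entered the comparison, and cortical ones only the test between regions. Cells were selected as the report states, from 43348 genes with 37 mitochondrial ones, and UMIs were summed per library for all interneurons, Sst-high cells and the others. Depth ranged from 2057888 to 21811541 summed UMIs per library, so a gene at 1 CPM rests on few UMIs in the smaller libraries.

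Genotype was tested by edgeR 4.0.16 (filterByExpr, TMM, quasi-likelihood F test) with chemistry as a term, and by DESeq2 1.42.0, in R 4.3.3 with limma 3.58.1; a gene was called at an adjusted p under 0.05. Sums and tables were made with Python 3.11.15, numpy 2.4.6, scipy 1.17.1, pandas 2.3.3 and matplotlib 3.10.9. Differences within a chemistry used log2 of TMM-scaled CPM plus 5. Shares of cells were compared by exact permutation of libraries. The tests were tested on simulated data with 200 planted genes. Levels of marker lists, Tomato, Ddx3y, Xist before the gene results, and Slc32a1 and Lhx6 are CPM without TMM, and medians over cells are CPM of each cell; other levels carry TMM.

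Named were the NMDA subunits, the genes of the cell rule, up to 6 rises and 6 falls per set among genes called by edgeR (it called none, so genes past 2 times in both chemistries filled the places, ranked by the smaller difference, mitochondrial and ribosomal protein genes skipped), the 3 most abundant members of each list and up to 4 genes per test of a difference. Calb1, Cirbp, Cort, Egr1, Gabrd, Itm2b, Lamp5, Npas4, Rpl27a, S100a13, Tmem59l and Vcan were chosen after their values were seen. The members and the gene lists were chosen with earlier results from these data known. With that knowledge, comparisons, alternatives and the naming rule were fixed before the data were examined again, except thinning after selection, which was added after seeing the data. Alternatives were DESeq2, no chemistry term, a replicate block, all 10 libraries, no filter on counts, library-size scaling, mitochondrial genes left out, other limits for cells, Gad1 and Gad2, Sst and oligodendrocyte RNA, thinning to 1000 UMIs per cell, other thresholds and leaving out each library. No doublet caller or ambient RNA correction was used, and no sequence reads were examined. Results for some genes that the rule names are not reported here.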

Additional observations from a re-analysis of the deposited data

Results flagged for a closer look

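The genotype change differed between Sst-high cells and the other interneurons for 31 genes in edgeR's test of that difference. Given here are the 3 with the smallest p. The log2 change in Sst-high cells minus that in the others was 2.92 for Apoe, 11.08 for Vip and 7.94 for Dlk1. Apoe was at 8.99, 3.79 and 13.8 CPM in WT replicates 1, 2 and 3 and at 14.0 and 16.2 in null replicates 1 and 2 in Sst-high cells, and at 40.8, 22.8 and 108 against 13.6 and 14.9 in the others, with both sets scaled together, so these levels differ slightly from those of the sets scaled apart in the report. Only 9, 4 and 28 WT and 11 and 67 null Sst-high cells had an Apoe UMI. Sums of 8 astrocyte markers also differed between the sets, at 88.7, 95.3 and 102 CPM against 116 and 127 in Sst-high cells and at 108, 177 and 135 against 75.7 and 109 in the others. Of the Sst-high sums, Aldoc made up 38.0, 19.1 and 36.6 CPM in WT and 72.3 and 62.2 in null libraries. Vip was at 0 in 4 of the 5 Sst-high sums and had UMIs in 1 cell of each library except null replicate 2, with 10, so its fitted difference depends on the small count edgeR adds and gives no size. Dlk1 was counted in 5, 1 and 20 WT cells and in 1 and 26 null cells, and the same holds for it. The cause of these differences was not tested.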

How the results depend on the processing

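Of 528 gene-level values under an alternative, 480 kept their direction and side of the threshold and 48 kept their direction and passed the threshold only under the alternative. Of 1278 list medians, 1181 moved by less than 1 SD between libraries and 97 by more. Of 130 values of the comparisons themselves, 88 were the same, 41 moved and 1 reversed.

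The number of genes called rose from 0 in all interneurons, Sst-high cells and other interneurons to 1, 2 and 1 with DESeq2, to 7, 9 and 15 with the replicate number as a block, and to 20, 14 and 21 with no filter on low counts, and in Sst-high cells to 1 with all 10 libraries. Leaving out a library gave 0 to 20, 1 to 35 and 2 to 21 called genes. Where this left 1 library in a genotype, that library is assumed to vary like the others. The difference between sets of cells was called for 9 genes at an adjusted p under 0.01.

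The number of genes that agreed in both chemistries was 195, 227 and 267 at 1.5 times, 38, 42 and 47 with 1 CPM added, 80, 51 and 87 with cells thinned to 1000 UMIs before selection, and 44, 62 and 60 with thinning after selection, an alternative chosen after seeing the data. Genes of opposite sign rose as well. They numbered 181, 231 and 232 at 1.5 times and 52, 41 and 64 with 1 CPM added. With thinning before selection they numbered 73, 48 and 95, and with thinning after it 42, 56 and 63. Of the 12, 17 and 13 genes reported, 9, 6 and 7 passed in both chemistries with thinning before selection and 7, 6 and 6 with thinning after it, while 2, 9 and 2 and then 0, 8 and 0 had too few UMIs to be tested. The count ranged from 6 to 31, 15 to 43 and 8 to 47 without WT replicate 2 or 3; leaving out any other library leaves a chemistry without a contrast and gave no value. The Sst-high share changed from 2.33 to -1.25 points with the Sst limit at 1000 CPM. Except where the alternative itself changes the threshold, the added count or the libraries, the cause was not tested.

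The version 2 contrast rests on 164 null cells. Both null libraries are deeper per cell than any WT library. Each chemistry holds both genotypes, but replicate 3 is WT only. Xist was at 0 or 1 UMI in both null libraries and WT replicate 2 but not in the others. Effects of depth, replicate and sex makeup were thus not separated from genotype. For Grin1 in all interneurons the log2 change was -2.60 and -2.48 with thinning before and after selection (edgeR adjusted p 0.995 and 0.999). Its difference from WT replicate 2, also without Xist, was -2.88. The part of depth and sex makeup in these values was not tested.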
